A study of Arabidopsis thaliana with 9 samples.

Results

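Of 16722 probe sets paired with exactly 1 gene on the Affymetrix AraGene 1.0 ST array, 95 were higher in the roots of both in-flight groups than in ground roots, and each of the 95 stood for a different gene. They were chosen by their measured values: all 6 in-flight arrays lay above all 3 ground arrays, both in-flight means exceeded the ground mean by at least 0.4 on the log2 scale, and the highest of the 3 group means was at least 5. Another 8 probe sets that met these limits were left out by name, among them those of KIN1, WRKY22 and the small heat shock protein gene ATHSP22.0. The 3 in-flight and ground groups came from whole roots of 10-day-old Arabidopsis thaliana seedlings in the Wassilewskija background, grown in continuous light. All of them, ground controls included, carried pCaMV35S:14-3-3κ:GFP, a fusion of a 14-3-3 protein to GFP driven by a strong viral promoter active in most plant cells.

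Each group of 3 arrays came from root pools of 1 Kennedy Space Center fixation tube (KFT), a sealed device that floods the seedlings with RNAlater when actuated. Last-actuated roots were fixed after the parabola of a jet flight, in which the aircraft pulled 4 g upward over roughly 30 s and then gave some 10 s of microgravity. First-actuated roots were fixed in flight during the low-altitude acceleration, both in-flight tubes being carried in flight-suit pockets, and ground roots were fixed in a tube held by a person on the ground while the flight was under way. The times rest on the treatment protocol. A second description of the same flight gives about 1.5 min after level flight resumed for in-flight fixation and does not separate the tubes. The statistics therefore cover only how pools of roots from the same tube vary, which may be technical, and the effects of a tube and of its condition cannot be told apart. The transgenic line was the only genotype. Of 16 root marker genes listed, 2 had a probe set paired with 1 gene. EXPA7, an expansin gene of root hairs, averaged 5.30, 4.72 and 5.31 in last-actuated, first-actuated and ground roots, so a root hair marker was above the array medians of 3.27 to 3.35 in every group, while the cortex gene AT1G09750 averaged 4.01, 4.45 and 4.22. In whole roots, a change in the share of a cell type and a change in its RNA per cell cannot be told apart.

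Several of the 95 genes belong to the machinery that folds proteins. Cyclophilins and FKBP-type proteins are peptidyl-prolyl isomerases, which turn the bond before a proline. HSP70-type chaperones hold unfolded stretches of protein, and barrel-shaped chaperonins such as those of the plastid enclose them. Other genes act in the synthesis of aromatic and branched-chain amino acids, in RNA metabolism and in the secretory pathway that supplies the cell wall. Only 8 of the 95 had a symbol in the RefSeq gene table. For loci without one, the family named below is background from general annotation of the Arabidopsis genome, and no family is given where it was not certain.

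The values that chose the genes are given as a description. Over the 95, the median difference from ground was 0.76 in last-actuated roots, with a range of 0.41 to 2.87, and 0.74 in first-actuated roots, with a range of 0.40 to 2.56. Over all 16722 probe sets the medians were 0.00 and 0.01. In 11 genes both differences reached 1 (2-fold), in 16 the last-actuated difference alone, in 9 the first-actuated difference alone, and in 59 neither. Of the 16722, 2.72% had all 6 in-flight arrays above all 3 ground arrays. The numeric limits were met by 103 probe sets, 0.616%, and 73 genes met the mirrored limits downward with the same names left out. On single arrays the median of the 95 genes stood 0.81, 0.74 and 0.79 above the ground mean in last-actuated roots and 0.85, 0.69 and 0.74 above it in first-actuated roots, against 0.03, 0.03 and -0.04 in ground roots. That every in-flight array lay above ground follows from the rule. The genes were of middle to high signal, with a median group mean of 7.78 in last-actuated, 7.66 in first-actuated and 6.85 in ground roots, and the limit on the level contributes to that.

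**Figure D1:**
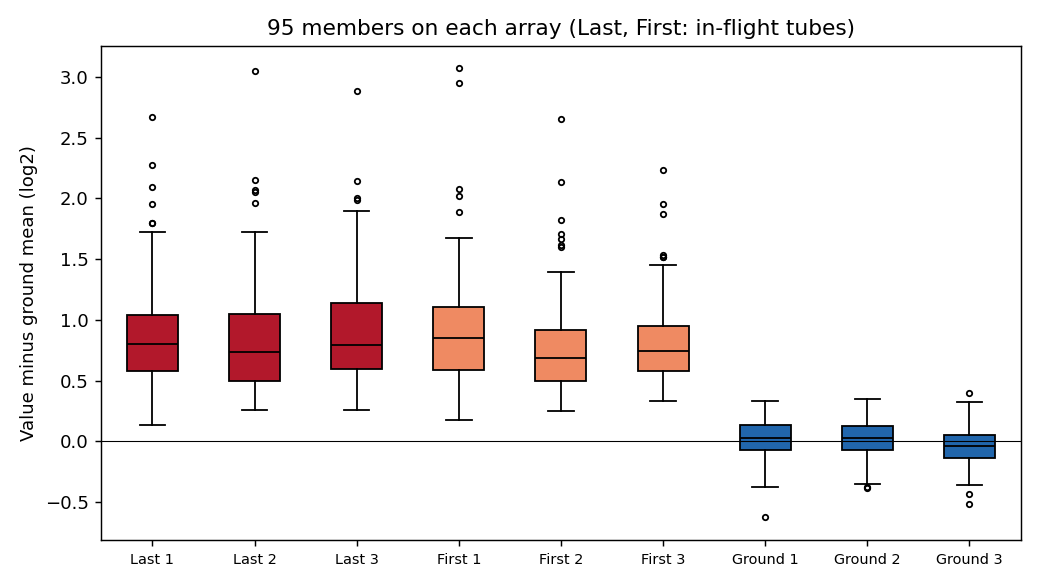
Difference of each of the 95 genes from its ground mean (log2, y axis) on each of the 9 arrays (x axis). Boxes span the quartiles with the median as a line, whiskers reach 1.5 times the box height or the last value within it, and points lie beyond; the medians of the 6 in-flight arrays lie between 0.69 and 0.85.

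At the limits themselves the choice was close. AT5G37340 and AT1G20220 were just inside, with first-actuated differences of 0.40 each, and AT2G16250 was just outside at 0.3997, as was CUL4, a cullin gene, at 0.3983. For the last-actuated difference AT2G14880 and FIB entered at 0.41 each, while PRN missed at 0.3992. The level limit admitted AT3G59480 at 5.05 and left out AT5G03230 at 4.94. The smallest gap between the lowest in-flight and the highest ground array was 0.01, in AT1G20220, followed by 0.04 in AT4G18280. AT1G76880 missed with a gap of 0.0000 and AT5G42200 with an overlap of -0.02. Only 1 limit was missed by 38 probe sets for the first-actuated difference, 28 for the last-actuated difference, 21 for the level and 11 for the overlap.

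The largest mean increase belonged to AT5G53680, which encodes an RNA-binding protein with an RNA recognition motif. Its log2 values were 6.41, 6.78 and 6.62 in last-actuated roots and 6.81, 6.40 and 5.69 in first-actuated roots, against 3.68, 3.76 and 3.77 in ground roots. The in-flight arrays overlapped each other and lay at least 1.92 above every ground array. These are 7.30-fold and 5.90-fold differences from ground in last-actuated and first-actuated roots. AT1G52870, a gene of the peroxisomal membrane PMP22 family, had 9.35, 9.23 and 9.22 in last-actuated and 9.10, 8.90 and 8.95 in first-actuated roots, against 7.21, 7.21 and 6.80 on the ground (4.57-fold and 3.75-fold). Both groups were far above ground and the last-actuated arrays lay just above the first-actuated ones. AT1G02700 had 6.21, 5.98 and 6.15 in last-actuated and 6.33, 5.96 and 5.77 in first-actuated roots, against 4.54, 3.99 and 4.23 on the ground.

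AT5G07330 and AT1G44414 were likewise raised to a like level in both tubes. AT5G07330 had 9.36, 9.32 and 9.60 in last-actuated and 9.83, 9.54 and 9.39 in first-actuated roots, against 8.25, 7.77 and 7.80 on the ground. AT1G44414 had 8.67, 8.65 and 8.72, and 8.89, 8.70 and 8.64, in the same order, against 7.43, 7.42 and 7.10. The in-flight groups overlapped for both genes, with differences of log2 -0.16 ± 0.16 and -0.06 ± 0.11 (limma SE) between last-actuated and first-actuated roots. AT4G25225 averaged 9.94 ± 0.11, 9.95 ± 0.12 and 8.84 ± 0.09 in last-actuated, first-actuated and ground roots (SD, n = 3 each), and AT5G05965 averaged 4.94 ± 0.14, 5.18 ± 0.17 and 3.83 ± 0.29. AT3G22970, AT4G02550 and AT2G38600, the last a gene of an acid phosphatase family, were also among the 20 largest, with last-actuated differences of 1.24, 1.23 and 1.60 and first-actuated differences of 1.00, 1.02 and 0.75 from ground. AT2G38600 varied most of the 20 on the ground, at 3.71, 4.57 and 4.74.

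**Figure D2:**
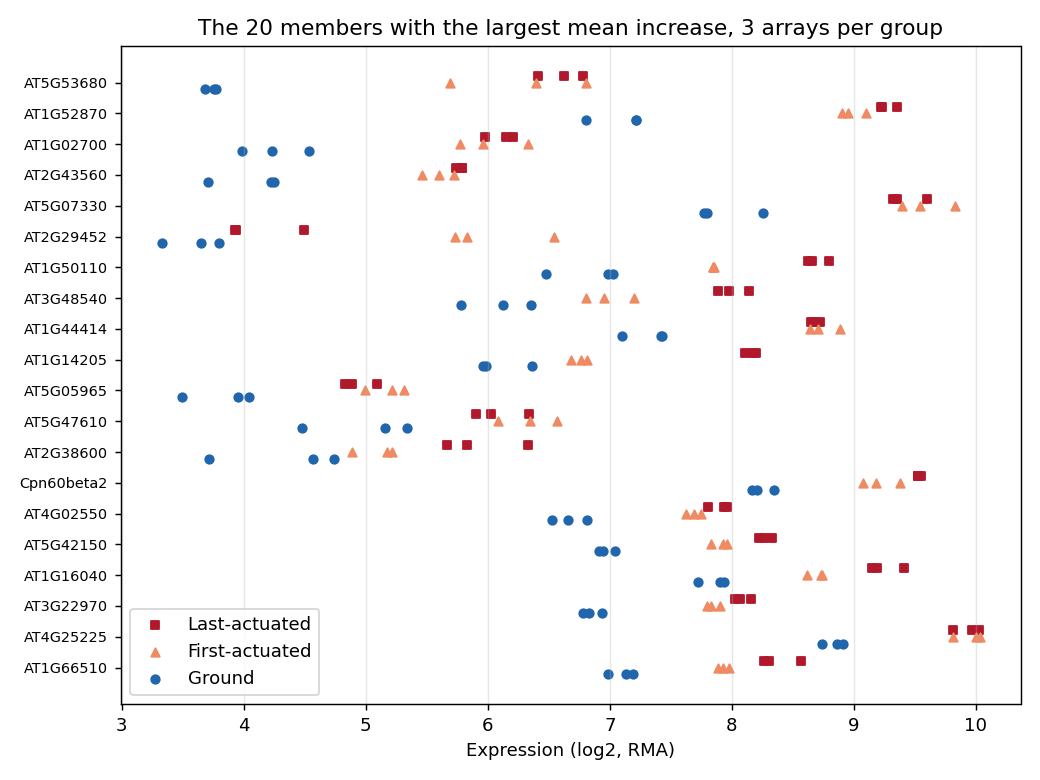
Log2 expression (x axis) on each of the 9 arrays for the 20 genes with the largest mean difference from ground (rows, largest at the top); squares are last-actuated, triangles first-actuated and circles ground arrays. Ground arrays lie left of all in-flight arrays in each row, while the order of the in-flight groups varies from row to row.

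Protein folding accounted for 7 of the 95 genes, in a grouping made with the values known. That grouping gave a role to 43 of the 95 genes and left 52 without one. It was made for the 95 alone, so the counts per role have no share over all probe sets beside them. The 7 folding genes had median differences from ground of 0.89 in last-actuated and 0.80 in first-actuated roots. AT2G43560, an FKBP-type isomerase gene, had 5.79, 5.79 and 5.74 in last-actuated and 5.46, 5.73 and 5.60 in first-actuated roots, against 4.25, 3.71 and 4.23 on the ground. Cpn60beta2, which encodes a beta subunit of the plastid chaperonin, had 9.52, 9.52 and 9.55 in last-actuated and 9.37, 9.07 and 9.18 in first-actuated roots, against 8.35, 8.17 and 8.21 on the ground. Its groups did not overlap, and the last-actuated and first-actuated means stood 1.29 and 0.97 above ground. SQN, also called cyclophilin 40, encodes an isomerase that works with HSP90 and promotes the activity of ARGONAUTE1 in microRNA pathways. SQN had 7.53, 7.33 and 7.65 in last-actuated and 6.65, 6.65 and 6.81 in first-actuated roots, against 6.14, 5.94 and 6.19 on the ground, so its groups formed 3 separate steps.

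The HSP70-type genes AT1G11660 and AT4G32208 differed from ground by 0.78 and 0.62 in last-actuated and by 0.80 and 0.92 in first-actuated roots. AT5G58110, a gene of a chaperone-binding ATPase activator, differed by 0.85 and 0.62, and AT1G66080, of the Hikeshi-like family that carries HSP70 into the nucleus, by 0.89 and 0.77. Of 5 probe sets named for chaperones or chaperonins in the RefSeq table, only that of Cpn60beta2 met the rule, and the copper chaperone gene CCS differed from ground by -0.15 in last-actuated and -0.03 in first-actuated roots. SQN was the only one of 4 cyclophilin genes named in that table and examined with the chaperonins that met it. The numeric limits were met by 0.616% of all probe sets with 1 gene, and nothing is read from 1 of 5 or 1 of 4. CYP59 differed from ground by 0.10 and 0.32, CYP71 by 0.02 and 0.06 and AT4G33060, also called CYP57, by 0.09 and -0.04 in last-actuated and first-actuated roots, and none of the 3 was called by limma. Cpn60beta3 averaged 7.45, 7.37 and 7.08 in last-actuated, first-actuated and ground roots (differences of 0.37 ± 0.10 and 0.29 ± 0.10, limma adjusted p = 0.111 and 0.146). Both Cpn60beta4 probe sets lay below the array medians, and one of them averaged 2.29, 2.39 and 2.19 in last-actuated, first-actuated and ground roots. Of 14 heat shock factors and chaperones listed separately, 2 had a probe set paired with 1 gene. Those 2, the nucleotide exchange factor gene Fes1A and the FKBP gene AT5G48570, were bright in all groups and did not pass limma in any comparison, with last-actuated differences from ground of 0.19 and 0.29 (adjusted p = 0.491 and 0.164).

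Genes of amino acid, nucleotide and carbon metabolism numbered 6. AT1G50110, a branched-chain aminotransferase gene, had 8.63, 8.80 and 8.66 in last-actuated and 7.86, 7.85 and 7.85 in first-actuated roots, against 7.03, 6.99 and 6.47 on the ground. AT3G48540, of the cytidine and deoxycytidylate deaminase family, had 7.88, 8.14 and 7.98 in last-actuated and 6.95, 7.20 and 6.80 in first-actuated roots, against 6.35, 5.78 and 6.13 on the ground. In both genes the 3 groups did not overlap, and last-actuated roots were the highest. AT1G22410, which encodes a DAHP synthase, the entry enzyme of the shikimate pathway to aromatic amino acids, ran the other way: 9.65, 9.67 and 9.79 in last-actuated and 10.27, 10.09 and 10.35 in first-actuated roots, against 9.10, 9.19 and 9.08 on the ground. AT4G17260, a lactate dehydrogenase gene, and its immediate neighbour AT4G17250 differed from ground by 0.46 and 0.49 in last-actuated and by 0.66 and 0.92 in first-actuated roots. They were 1 of 2 close pairs of loci among the 95. The sugar kinase family gene AT3G59480 and the zinc-binding alcohol dehydrogenase family gene AT5G61510 differed by 0.41 and 0.68 in last-actuated and by 0.88 and 0.41 in first-actuated roots. Of 34 probe sets with dehydrogenase in the symbol or synonyms, 0 met the rule. Its numeric limits were met by 0.616% of all probe sets with 1 gene, so nothing is read from that count. AT4G17260 and AT5G61510, dehydrogenase genes by annotation, were not among the 34. Median differences from ground of the 34 were -0.03 in last-actuated and 0.02 in first-actuated roots.

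RNA, transcription and translation were represented by 8 genes, AT5G53680 among them. AT5G12110, for a subunit of the elongation factor EF1B, was bright throughout, with group means of 10.96, 10.75 and 10.12 in last-actuated, first-actuated and ground roots. AT4G33660, also among the bright probe sets, averaged 10.69 ± 0.09, 10.37 ± 0.14 and 9.76 ± 0.07 in the same groups, and AT5G11680 averaged 10.51 ± 0.05, 10.21 ± 0.13 and 9.55 ± 0.13 (SD, n = 3 each). AT5G37340, a ZPR1-type zinc finger gene, differed from ground by 0.97 and 0.40, and AT1G66510, of the AAR2 family of splicing proteins, by 1.28 and 0.83. The trihelix transcription factor gene AT5G01380 (0.76 and 0.82), the TFIIS-type elongation factor gene AT3G10820 (0.95 and 0.81) and the pentatricopeptide repeat gene AT3G46870 (1.08 and 0.94) differed by similar amounts in both tubes. Each pair gives last-actuated and then first-actuated roots minus ground. AT1G20220, an Alba-type DNA- and RNA-binding protein gene, was the smallest change of the 95 by the mean of both differences.

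The 7 genes of stress, detoxification and defence had medians of 0.76 in last-actuated and 0.76 in first-actuated roots. GSTF3, a glutathione S-transferase gene, had 7.40, 7.54 and 7.05 in last-actuated and 7.45, 7.32 and 7.29 in first-actuated roots, against 6.85, 6.43 and 6.51 on the ground. It was the only one of 13 probe sets named for glutathione S-transferases that met the rule. The numeric limits were met by 0.616% of all probe sets with 1 gene, and nothing is read from 1 of 13. Over all 13, limma called 1 higher and 0 lower in last-actuated and 2 higher and 1 lower in first-actuated roots than in ground roots. Of all probe sets, 1.81% (0.927% higher, 0.881% lower) and 4.89% (2.25% higher, 2.64% lower) were called. GSTF3 itself was the call in last-actuated roots and 1 of the 2 higher in first-actuated roots. The rule had chosen it by these contrasts, so its calls tell nothing about the family. GSTU20 averaged 5.09, 6.46 and 5.05 in last-actuated, first-actuated and ground roots. It rose in first-actuated roots against ground (1.41 ± 0.21, limma adjusted p = 0.00396). Its difference between the in-flight groups was -1.37 ± 0.21 (limma adjusted p = 0.00345). Between these groups limma called 2 of the 13 higher in last-actuated roots, GSTU22 (0.97) and GSTU26 (0.86). It called 3 lower, GSTU20, GSTU28 (-0.76) and GSTU18 (-0.74). Of all probe sets 3.58% were called higher and 3.15% lower. The 12 probe sets other than GSTF3 had last-actuated differences from ground between -0.57 and 0.39. AT5G42150, of the glutathione S-transferase family by annotation but not by symbol, had 8.26, 8.22 and 8.33 in last-actuated and 7.83, 7.92 and 7.96 in first-actuated roots, against 7.04, 6.94 and 6.91 on the ground.

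PDF1.4, a plant defensin gene, had 9.79, 9.81 and 10.09 in last-actuated and 9.51, 9.29 and 9.48 in first-actuated roots, against 8.76, 8.31 and 9.02 on the ground. Its lowest in-flight array was 0.26 above the highest ground array. The universal stress protein gene AT3G03270 differed from ground by 1.11 in last-actuated and 0.62 in first-actuated roots, the dirigent family gene AT1G58170 by 0.76 and 0.89, and AT1G51340, for a MATE-type citrate transporter, by 0.59 and 0.62. AT1G30760, of the berberine bridge enzyme family of oxidases, had 7.30, 7.03 and 7.32 in last-actuated and 7.62, 7.72 and 7.64 in first-actuated roots, against 6.47, 6.59 and 6.36 on the ground. There the first-actuated roots were the higher.

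Among genes of lipids, plastids and organelle membranes, FaTA, the thioesterase that ends fatty acid synthesis in the plastid, averaged 5.47 ± 0.16, 5.82 ± 0.23 and 4.70 ± 0.15 in last-actuated, first-actuated and ground roots. FIB, a fibrillin of plastid lipid droplets, averaged 8.45 ± 0.06, 8.72 ± 0.24 and 8.04 ± 0.05, and AT1G67360, of the rubber elongation factor family found on cytosolic lipid droplets, 8.90 ± 0.09, 9.02 ± 0.09 and 8.24 ± 0.11 (SD, n = 3 each). AT5G51740, an M48-type mitochondrial peptidase gene, and AT5G55050, a GDSL lipase gene, differed from ground by 0.70 and 0.77 in last-actuated and by 0.89 and 0.44 in first-actuated roots. The 3 ubiquitin-related genes were the RING finger genes AT5G47610 and AT5G58787 and SAY1, which encodes a protein with a ubiquitin-like domain. Of 30 probe sets with ubiquitin in the symbol or synonyms, 0 met the rule. Its numeric limits were met by 0.616% of all probe sets with 1 gene. Median differences from ground of the 30 were -0.05 in last-actuated and -0.04 in first-actuated roots. AT5G47610 had 6.34, 6.02 and 5.91 in last-actuated and 6.57, 6.09 and 6.35 in first-actuated roots, against 5.16, 5.34 and 4.47 on the ground.

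In the cell wall and secretory group of 6, AT5G62620 encodes a galactosyltransferase that adds sugar to arabinogalactan proteins. It had 6.83, 6.50 and 6.76 in last-actuated and 7.50, 7.44 and 7.36 in first-actuated roots, against 6.17, 6.31 and 6.07 on the ground. AT1G16040, of the family that attaches glycolipid anchors to proteins, had 9.19, 9.15 and 9.41 in last-actuated and 8.74, 8.61 and 8.73 in first-actuated roots, against 7.90, 7.94 and 7.72 on the ground. These genes moved away from ground in both tubes and were highest in different ones. The nucleotide sugar transporter family gene AT5G57100 differed from ground by 1.20 in last-actuated and 0.81 in first-actuated roots. Smaller differences were seen for AT5G62350 and AT1G14890, of the invertase and pectin methylesterase inhibitor family (0.60 and 0.49 in last-actuated, 0.75 and 0.55 in first-actuated roots), and the pectin lyase-like gene AT4G33440 (0.54 and 0.58).

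The rule set no direct limit on the difference between the in-flight groups. Its limits on the level, on the differences from ground and on the overlap use the same in-flight arrays. They therefore bear on that contrast for genes near a limit, such as AT5G37340 with a first-actuated difference of 0.40. The contrast was tested with limma over 17481 probe sets. Of the 95 genes 18 (18.9%) were called, with last-actuated roots higher in 12 and lower in 6. Of all probe sets 6.73% were called, 3.58% higher and 3.15% lower. Among the 5882 probe sets with 1 gene and a highest group mean of at least 5, which resemble the 95 in level, 14.5% were called, 8.40% higher and 6.14% lower, against 12.6% and 6.32% of the 95. The share of the 95 was therefore near that of probe sets of their level, and nothing particular to the 95 is read from it. Both in-flight means were at least 5 in 89 of the 95 genes, and 16 of these 89 were called, 12 higher and 4 lower. The other 6 genes met the limit on the level through 1 in-flight group alone, 5 of them through first-actuated roots. The called genes AT2G29452 and AT2G15780 were among those 5, so their calls are not independent of the rule. Without last-actuated replicate 1, 11 of the 95 were called. AT1G52565 (adjusted p = 0.0509 without that replicate), AT1G30760, AT1G66510, AT2G34040, AT5G42150, AT5G58787 and SAY1 were the 7 that lost the call there. In all 18 the last-actuated and first-actuated arrays were separate. The calls rest on the same arrays and favour such separation, so nothing is read from it. Separate arrays were seen in 21.8% of all probe sets with 1 gene, called or not. The share was 36.9% of those with a highest group mean of at least 5.

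AT1G14205 differed most among those higher in last-actuated roots. Its values were 8.20, 8.18 and 8.11 in last-actuated and 6.76, 6.68 and 6.81 in first-actuated roots (6.36, 5.96 and 5.98 on the ground), a difference of 1.41 ± 0.11 (SE, limma adjusted p = 0.000103). AT3G48540 differed by 1.02 ± 0.15 (adjusted p = 0.00332), AT1G50110 by 0.84 ± 0.14 (adjusted p = 0.00507) and SQN by 0.80 ± 0.11 (adjusted p = 0.00207). AT5G37340 and AT5G37710, an alpha/beta hydrolase gene, both differed by 0.57, and AT1G16040 by 0.56. SAY1 differed by 0.52 and AT1G66510 by 0.45. AT2G34040, of the API5 family of cell death inhibitors, differed by 0.37, as did AT5G42150, and AT5G58787 by 0.35, with adjusted p = 0.0472, 0.0254 and 0.0472 by limma. These last 3 were the smallest of the 12.

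Among the genes lower in last-actuated roots, AT2G29452 and AT2G15780 are described without a test, since only their first-actuated means reached 5. AT2G29452 had 4.49, 3.93 and 3.93 in last-actuated roots and 6.54, 5.73 and 5.83 in first-actuated roots, against 3.33, 3.80 and 3.65 on the ground, so its last-actuated arrays were near ground. The difference between the in-flight groups was -1.92. AT2G15780, a blue copper protein family gene, had 4.98 on each of the 3 last-actuated arrays and 5.67, 6.14 and 6.04 in first-actuated roots, against 4.32, 4.69 and 4.55 on the ground (a difference of -0.97). AT1G52565 had 6.82, 6.84 and 6.86 in last-actuated and 8.02, 7.27 and 7.72 in first-actuated roots (-0.83 ± 0.16, limma adjusted p = 0.0133). AT5G62620 differed by -0.73 ± 0.11, AT1G22410 by -0.53 ± 0.09 and AT1G30760 by -0.45 ± 0.10 (adjusted p = 0.00301, 0.00778 and 0.0299 by limma).

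**Figure D3:**
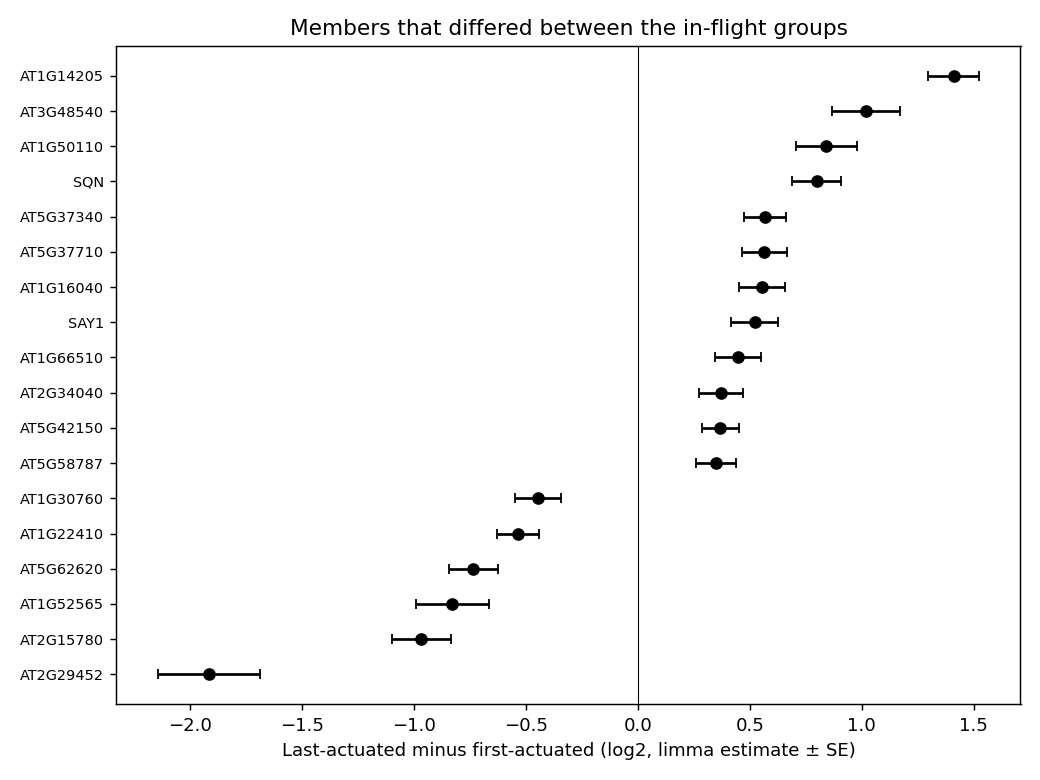
Last-actuated minus first-actuated difference (log2, x axis) for the 18 genes called between the in-flight groups (rows); points are limma estimates and bars their SE. The differences span 1.41 for AT1G14205 to -1.92 for AT2G29452, with 12 genes above 0 and 6 below, of which AT2G29452 and AT2G15780 reached a mean of 5 in first-actuated roots alone.

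For the other 77 genes no difference between the in-flight groups was called, which does not show that the groups were alike. Of these, 26 differed by less than 0.1 in either direction, and the largest was AT2G38600 at 0.85 (limma adjusted p = 0.083). All 3 last-actuated arrays lay above all 3 first-actuated arrays in 31 of the 95 genes (32.6%), and the reverse held in 16 (16.8%). The shares were 21.7% and 15.2% of the 5882 probe sets with a highest group mean of at least 5, and 11.3% and 10.5% of all probe sets with 1 gene. The rule used the same in-flight arrays, so nothing particular to the 95 is read from these shares. SQN and AT2G15780 were the second close pair, with 2 annotated loci between them, and their differences between the in-flight groups, 0.80 and -0.97, had opposite signs. LHB1B2, the sole one of 7 listed shoot genes with a probe set paired with 1 gene, averaged 5.94, 7.90 and 7.00 in last-actuated, first-actuated and ground roots. Its in-flight difference was -1.96 ± 0.28 (limma adjusted p = 0.00224), the direction of the 6 genes lower in last-actuated roots, and its part in those results was not tested.

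**Figure D4:**
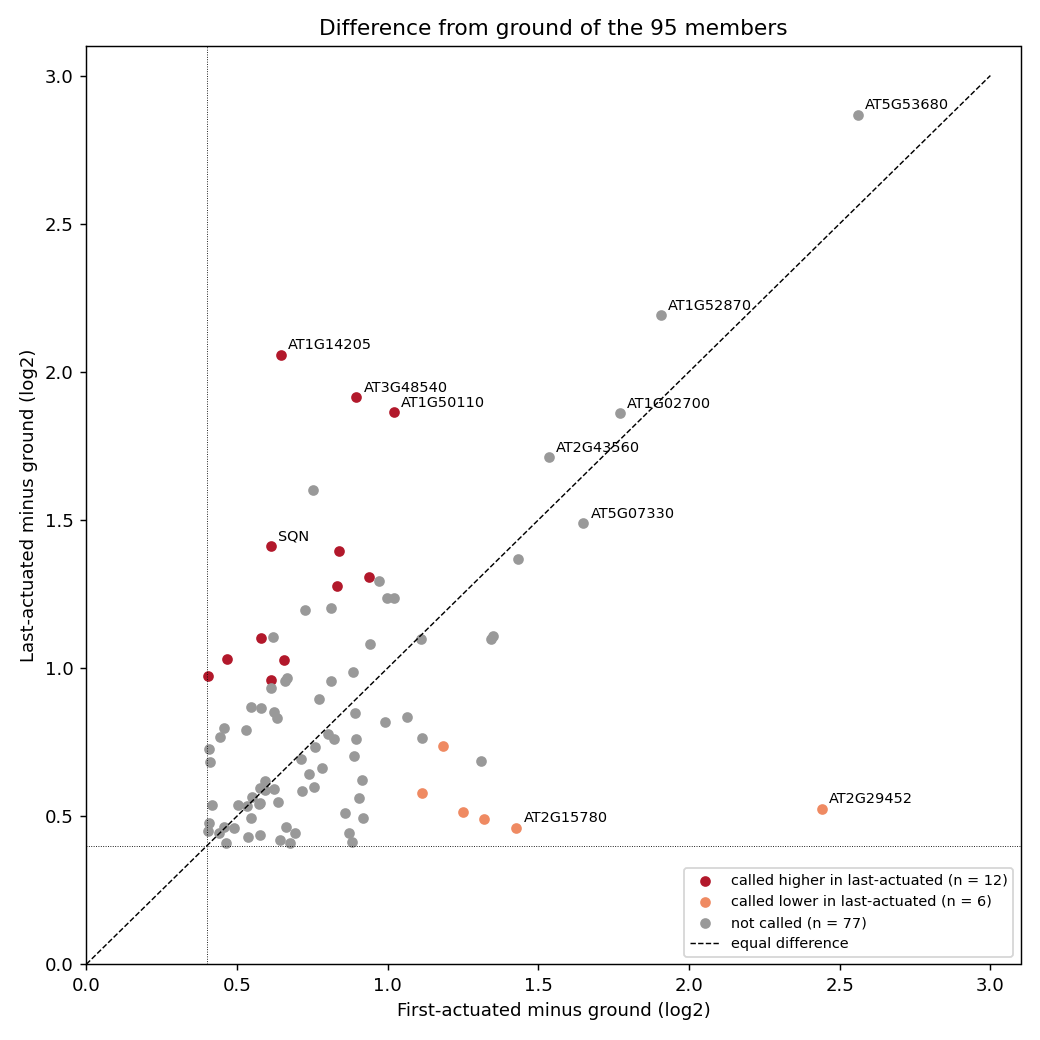
Difference from ground (log2) of the 95 genes in first-actuated roots (x axis) and last-actuated roots (y axis), coloured by the limma call between the in-flight groups. Dotted lines mark the limit of 0.4 and the dashed line equal differences; both axes share the ground arrays, so the position along the dashed line is no independent evidence, and AT1G14205 and AT2G29452 lie farthest from it.

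Against ground, limma called 64 of the 95 genes higher in last-actuated roots (background 0.927%) and 80 higher in first-actuated roots (background 2.25%), 62 of them in both and 13 in neither. Both contrasts were used by the rule and share the ground arrays, so these counts only describe the choice. Of 50 loci in 5 stress, starvation and clock lists, 10 had a probe set paired with 1 gene and 0 were among the 95. Of all probe sets with 1 gene, 0.616% met the numeric limits, so nothing is read from 0 of 10. AT2G21640, a marker of mitochondrial dysfunction, averaged 7.35, 6.44 and 6.10 in last-actuated, first-actuated and ground roots and did not pass (last-actuated minus ground 1.25 ± 0.30, limma adjusted p = 0.078). KIN2, a cold and abscisic acid gene, averaged 10.85, 11.20 and 10.75 and did not pass either (adjusted p = 0.828 and 0.0885 for last-actuated and first-actuated against ground). The late embryogenesis abundant gene AT3G02480 and the sugar-repressed gene AT3G15450 were called between the in-flight groups (-2.74 ± 0.24 and 1.01 ± 0.08, adjusted p = 0.000164 and 0.000126). First-actuated minus ground was 1.74 ± 0.24 for AT3G02480 and -0.81 ± 0.08 for AT3G15450 (limma adjusted p = 0.00308 and 0.000689).

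By position, 28 of the genes lay on chromosome 1, 13 on chromosome 2, 13 on chromosome 3, 14 on chromosome 4 and 27 on chromosome 5, all protein-coding in the RefSeq table of assembly TAIR10.1. For 23 of them the annotated locus overlapped another one, among them AT1G44414, AT2G38600, Cpn60beta2, AT1G66510 and SQN. Which of the overlapping loci the probes read was not tested. The genes AT2G07714, AT2G07776 and AT2G07825 lie near the centromere of chromosome 2, where the Columbia reference carries a large nuclear copy of mitochondrial DNA. AT2G07776 had 5.86, 6.53 and 6.01 in last-actuated and 6.68, 6.27 and 6.50 in first-actuated roots, against 5.62, 5.50 and 5.75 on the ground. AT2G07825 averaged 8.46, 8.71 and 8.02, and AT2G07714 averaged 5.86, 5.90 and 5.32, in last-actuated, first-actuated and ground roots.

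The stretch from AT2G07667 to AT2G07835, taken up after these 3 had been seen, held 64 probe sets with 1 gene, from 49 loci. Of these probe sets, 10 had values identical to those of another. The median difference of the 64 from ground was 0.18 in last-actuated and 0.27 in first-actuated roots. Over all probe sets with 1 gene it was 0.00 and 0.01. Values above ground were seen for 55 of the 64 in last-actuated and 60 in first-actuated roots, where 50.7% and 51.4% of all probe sets lay above ground. The medians and counts include the 3 genes that met the rule, which lie above ground by choice. Both comparisons share the ground arrays. These are counts over probes of similar sequence, with no test. Whether nuclear or mitochondrial transcripts were read was not tested.

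**Figure D5:**
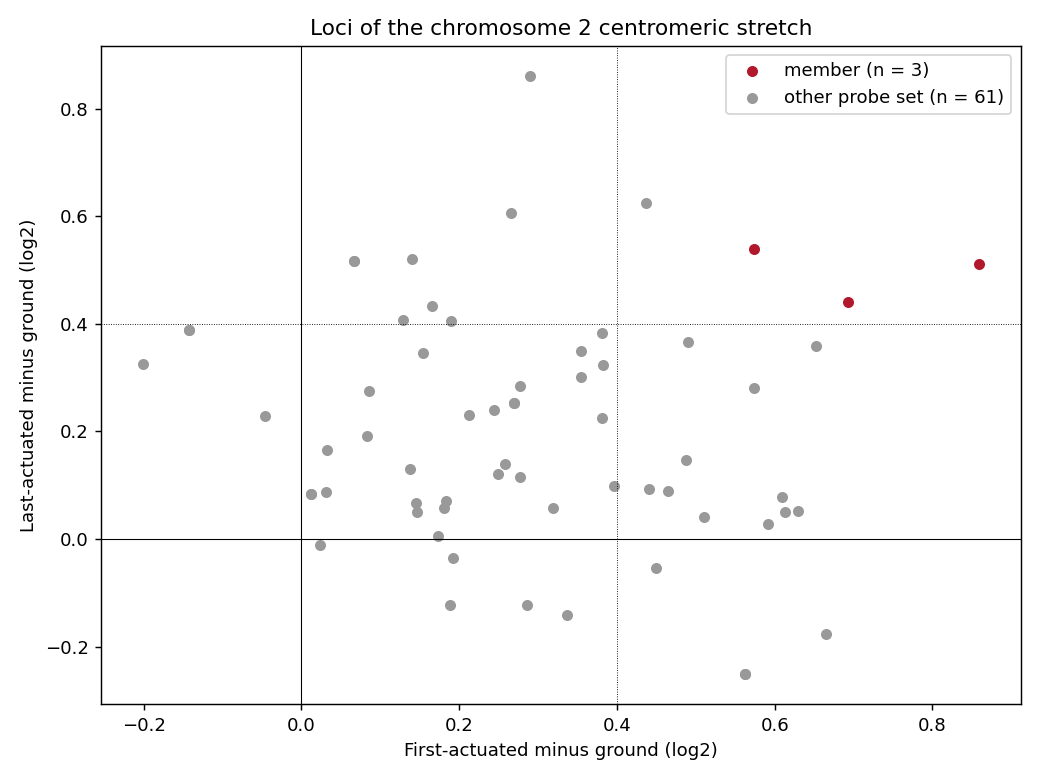
Difference from ground (log2) in first-actuated roots (x axis) and last-actuated roots (y axis) of the 64 named probe sets from AT2G07667 to AT2G07835; dotted lines mark the limit of 0.4. The 3 genes that met the rule lie at the upper right of a group in which 60 probe sets lie right of 0 and 55 above it.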

How the data were processed

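Gene expression was measured on 9 arrays, 3 per group. The authors deposited log2 values. RMA, oligo, limma, R 4.0.0 and the TAIR10 build are listed, per the submitters' processing notes, with no order of steps. RMA as usually run includes quantile normalization, which removes a change shared by most transcripts. No detection calls or scan dates were used here, so signal over background is not known, and the number of arrays limits the precision.

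Genes were assigned from the platform's annotation table and their symbols updated from a RefSeq table of TAIR10.1, whose coordinates are not given. Of 38408 probe sets, 16722 had 1 gene (16574 matched in RefSeq), 759 several and 20927 were unnamed here. The rule was applied to the log2 values of those with 1 gene. Differences were tested with lmFit and eBayes (limma 3.58.1, R 4.3.3; all 9 arrays, no block) on 17481 named probe sets, called at a Benjamini-Hochberg adjusted p under 0.05, and checked on simulated data.

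The genes and lists were chosen with earlier results of these data known. Named genes are the 20 largest mean differences, up to 12 called per direction between the in-flight groups, the 5 brightest probe sets, those nearest the limits, families with several genes and up to 6 loci per list; further genes were named by role after their values were seen. Gene families were matched by words in symbols and synonyms. A planned promoter motif search was not run, because no promoter sequence was used here. Replicate numbers did not pair the arrays: deviations of same-numbered arrays correlated at -0.09 to 0.04.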

Additional observations from a re-analysis of the deposited data

Results flagged for a closer look

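The effect of the last-actuated and the first-actuated tube, each against ground, differed by limma's test of the difference in 18 of the 95 genes (18.9%), and no explanation was weighed. Of all probe sets 6.73% were called, and 14.5% of those with 1 gene and a highest group mean of at least 5. Nothing particular to the 95 is read from the count. The difference (last-actuated minus first-actuated, log2) was positive for AT1G14205 (1.41), AT3G48540 (1.02), AT1G50110 (0.84), SQN (0.80), AT5G37340 (0.57), AT5G37710 (0.57), AT1G16040 (0.56), SAY1 (0.52), AT1G66510 (0.45), AT2G34040 (0.37), AT5G42150 (0.37) and AT5G58787 (0.35). It was negative for AT1G30760 (-0.45), AT1G22410 (-0.53), AT5G62620 (-0.73), AT1G52565 (-0.83), AT2G15780 (-0.97) and AT2G29452 (-1.92). The last 2 met the limit on the level through first-actuated roots alone, with means of 5.95 for AT2G15780 and 6.03 for AT2G29452, against 4.98 and 4.12 in last-actuated roots, so their differences are not independent of the rule. Outside the probe sets with 1 gene, the same numeric limits were met by 133 of 20927 unnamed probe sets and by 6 of 759 with several genes, which were not analysed further.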

How the results depend on the processing

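The number of genes meeting the rule was 95, and 49 with a smallest difference of 0.6. It lay within 1.5 times of 95 at 0.3 (135), with no floor on the level (116), with a floor of 6 (80) and with each array centred on its median (106, including all 95). Leaving out each array in turn gave 95 to 116 genes, of which 86 to 93 were among the 95. The count called between the in-flight groups was 18, and 11 to 19 when each array was left out in turn, lowest without last-actuated replicate 1. With the replicate number as a block (replicate block) it was 13, all among the 18, and the other fits gave 14 to 22. In all 16 alternatives 11 of the 18 genes were called. AT2G29452 and AT2G15780 were among these 11, and their calls are not independent of the rule in any setting. AT1G30760, AT1G66510, AT1G52565, AT2G34040, AT5G42150, AT5G58787 and SAY1 lost the call in at least 1 alternative, and the cause was not tested. No called difference reversed. The number of arrays limits the precision, and signal over background is not known.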

Other observations

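The 8 probe sets that met the numeric limits but were left out by name were AT1G26240, AT1G71000, AT3G07150, AT3G23170, AT5G37670, ATHSP22.0, KIN1 and WRKY22. Of these, the transcription factor gene WRKY22 averaged 6.05, 5.75 and 5.25 in last-actuated, first-actuated and ground roots, and AT3G23170 averaged 7.76, 7.94 and 6.90.

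Of the 95 genes, 3 had another probe set, and none of those met the rule. The other AT4G24410 probe set differed from ground by 0.15 in last-actuated and 0.45 in first-actuated roots, with no overlap with ground. The other AT2G07714 and AT2G07776 probe sets differed by 0.36 and 0.09 in last-actuated and by 0.65 and 0.46 in first-actuated roots, and both overlapped with ground.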
